A study of Mus musculus with 12 samples.

Results

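Cxcl5 and 7 other chemokines of the mouse brain, Cxcl1, Cxcl12, Cxcl14, Cxcl16, Cx3cl1, Ccl2 and Ccl12, were followed through 12 RNA sequencing libraries. The 8 symbols were mapped to their Ensembl gene identifiers, and all 8 were found among the 41388 genes of the deposited count files. All animals were Bmal fl/fl mice of an ALDH1L1-CreERT2 strain on a C57BL\6 background, in which the Aldh1l1 promoter, active in astrocytes, drives a Cre recombinase that tamoxifen switches on. Cre+ animals are labelled knockout (KO) and Cre- animals wildtype (WT); animals of both labels received tamoxifen by gavage at 2 mg per day for 5 days when 2 months old, and brains were collected at 20 months. Collagenase-dissociated brain cells were passed over beads against the astrocyte antigen ACSA-2, which gave a bound fraction, called astrocytes, and an unbound fraction, called flowthrough. There were 4 KO and 4 WT astrocyte libraries, and 2 KO and 2 WT flowthrough libraries from 4 of the same 8 mice. Libraries are named by label and mouse number. The 8 chemokines were chosen by their KO and WT levels in these libraries, above all the high Cxcl5 level in KO, so their KO against WT values are given below as a description. Where they are counted among genes passing a threshold, the choice had already used that contrast, and the count supports nothing about them.

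Chemokines are small secreted proteins that direct the migration of cells through G protein-coupled receptors. CXCL5 and CXCL1 act through CXCR2 and draw neutrophils, CXCL12 acts through CXCR4 and ACKR3, CXCL16 through CXCR6, and CCL2 and CCL12 through CCR2 on monocytes. CX3CL1 is a membrane-anchored chemokine of neurons whose receptor CX3CR1 marks microglia, the resident macrophages of the brain, and CXCL14 is an atypical member of the family. NF-kB is a transcription factor that turns on Cxcl1 and Ccl2 in inflamed tissue, and BMAL1, the product of Arntl, drives the circadian clock with CLOCK by binding E-box sites.

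Library totals ran from 38691406 to 51551942 counts, at which 3 counts, taken as the floor of detection, equal 0.0582 to 0.0775 counts per 1000000 counts of the library (CPM); this floor covers counting error only. The targeted gene, Arntl, did not check the labels. It had 401 to 645 raw counts in KO astrocytes against 239 to 374 in WT astrocytes, and 261 to 284 in KO flowthrough against 217 to 292 in WT flowthrough, with no lower level in KO. Exons outside a deletion still count toward this gene total, and which exons are floxed is not stated in the labels, so KO below always means a library labelled KO. Libraries KO 73 and WT 78 were female-type by Xist and Ddx3y, and the other 10 were male-type. All 12 astrocyte markers examined were higher in the astrocyte than in the flowthrough fraction, whereas all 13 microglia and all 12 neutrophil markers were lower. The astrocyte fraction was also higher for all 8 neuron markers, and all 8 oligodendrocyte markers had log2 differences above 0. Median log2 differences were 1.87 for astrocyte, 1.60 for neuron and 0.99 for oligodendrocyte markers, so a higher level in this fraction is not particular to astrocyte genes. These are bulk libraries, in which fewer cells of a type and less RNA per cell cannot be told apart.

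Cxcl5 was about 22-fold higher in KO than in WT in both fractions. Cxcl5 (ENSMUSG00000029371, GRCm38 chromosome 5, 90759299 to 90761625, forward strand, 4 exon intervals) encodes a neutrophil-attracting ligand of CXCR2. In KO astrocytes 132, 60, 62 and 73 its level was 42.0, 38.8, 35.2 and 36.1 CPM after TMM scaling (scaled CPM throughout), from 1485 to 1985 raw counts a library. In WT astrocytes 56, 57, 64 and 78 it was 1.44, 1.35, 2.11 and 1.98 scaled CPM, from 46 to 95 counts. The 4 KO astrocyte libraries lay close together and all above the 4 WT libraries, and every WT library was above the floor of detection. The KO mean was 38.0 ± 3.0 and the WT mean 1.72 ± 0.38 scaled CPM (SD, n = 4 each), a log2 difference of 4.47 ± 0.17 (SE; 95% interval 4.09 to 4.85), or 22.1-fold. In flowthrough, Cxcl5 was at 6.33 and 12.3 scaled CPM in KO 132 and 60, and at 0.362 and 0.475 in WT 56 and 64, the latter from only 20 and 24 counts. The KO and WT flowthrough libraries did not overlap either, and the KO pair differed more from each other, by 1.95-fold, than the 4 KO astrocyte libraries did, by 1.19-fold. The log2 difference in flowthrough was 4.47 ± 0.34 (95% interval 3.73 to 5.22), or 22.2-fold. The difference between the fractions in the KO against WT contrast of Cxcl5 was -0.01 ± 0.41 (95% interval -0.90 to 0.88 on the log2 scale).

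**Figure D1:**
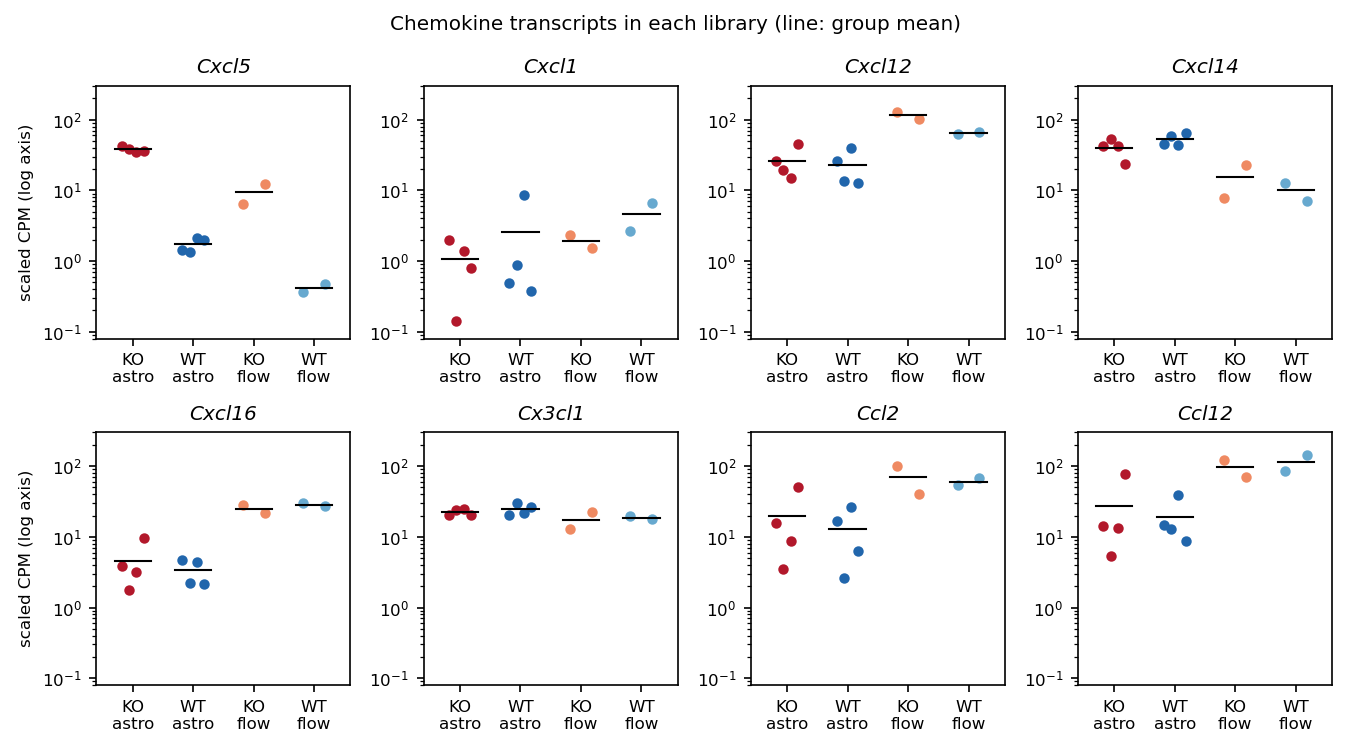
Level of each of the 8 chemokines in each library, in scaled CPM on a log axis, for KO and WT astrocytes (4 libraries each) and KO and WT flowthrough (2 libraries each); points are libraries and lines are group means. Cxcl5 is the panel where KO astrocytes (35.2 to 42.0) stand clear of WT astrocytes (1.35 to 2.11), and the Cxcl1 panel shows 1 WT astrocyte library, at 8.52, away from the others.

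Cxcl1, the second CXCR2 ligand of the list, did not share this pattern. Cxcl1 (ENSMUSG00000029380, chromosome 5, 90891241 to 90893115, forward strand) lies in the same chemokine cluster as Cxcl5, 132 kb further along. Its level was 1.97, 0.142, 1.398 and 0.805 scaled CPM in KO astrocytes 132, 60, 62 and 73, from 6 to 93 counts. In WT astrocytes 56, 57, 64 and 78 it was 0.481, 0.879, 8.52 and 0.376 scaled CPM. The labels overlapped, and the highest and the lowest WT library differed 22.6-fold. Flowthrough levels were 2.31 (KO 132), 1.54 (KO 60), 2.66 (WT 56) and 6.67 scaled CPM (WT 64), and mouse 64 was again the highest. The log2 difference of KO from WT was -1.25 ± 1.03 in astrocytes (95% interval -3.56 to 1.06) and -1.27 ± 1.34 in flowthrough (-4.21 to 1.66). Without mouse 64 the astrocyte value was 0.91, so its direction rested on that animal.

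Cxcl12 (ENSMUSG00000061353, chromosome 6, 117168535 to 117181367, forward strand), the ligand of CXCR4 and ACKR3 with roles in vessels and neuronal migration, had separate KO and WT libraries in flowthrough, as Cxcl5 and Cxcl1 did, but with KO above WT, unlike Cxcl1. Its flowthrough levels were 129 (KO 132), 103 (KO 60), 63.1 (WT 56) and 66.5 scaled CPM (WT 64). In astrocytes it was at 26.3, 19.1, 15.1 and 44.8 in KO 132, 60, 62 and 73 and at 26.2, 13.5, 39.9 and 12.7 in WT 56, 57, 64 and 78. The astrocyte libraries of the labels were interleaved, and every flowthrough library was above every astrocyte library. The log2 difference of KO from WT was 0.84 ± 0.56 in flowthrough (95% interval -0.38 to 2.06) and 0.20 ± 0.43 in astrocytes (-0.77 to 1.16).

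For Cxcl14 and Cxcl16 the KO and WT libraries overlapped in both fractions. Cxcl14 (ENSMUSG00000021508, chromosome 13, 56288647 to 56296551, reverse strand) was at 42.7, 52.7, 42.0 and 23.8 scaled CPM in KO astrocytes 132, 60, 62 and 73, and at 45.9, 58.7, 44.1 and 65.7 in WT 56, 57, 64 and 78. KO 73 was the lowest of the 8 and WT 78 the highest, and the other 6 lay between 42.0 and 58.7. In flowthrough Cxcl14 was at 7.72 (KO 132), 22.9 (KO 60), 12.9 (WT 56) and 7.06 (WT 64), so the labels overlapped. The log2 difference of KO from WT was -0.40 ± 0.23 in astrocytes (95% interval -0.92 to 0.12) and 0.61 ± 0.48 in flowthrough (-0.44 to 1.67). Cxcl16 (ENSMUSG00000018920, chromosome 11, 70453983 to 70459984, reverse strand), a membrane-bound chemokine and scavenger receptor, was at 3.85, 1.78, 3.20 and 9.54 scaled CPM in KO astrocytes and 4.72, 2.23, 4.38 and 2.12 in WT astrocytes, in the same order of mice. KO 73 was the highest of the 8 for Cxcl16. Its log2 difference was 0.46 ± 0.50 in astrocytes and -0.20 ± 0.62 in flowthrough, where levels were 21.9 to 29.9. The first 552 bases of Cxcl16 overlap Zmynd15 on the opposite strand, and no strand setting of the counting is stated in the labels, which leaves its count uncertain.

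Cx3cl1 had the KO against WT estimates nearest to 0 of the 8 in both fractions. Cx3cl1 (ENSMUSG00000031778, chromosome 8, 94772009 to 94782423, forward strand) stood at 20.4, 23.9, 25.0 and 20.4 scaled CPM in KO astrocytes 132, 60, 62 and 73, and at 20.1, 30.1, 22.0 and 26.1 in WT 56, 57, 64 and 78. Its flowthrough levels were 12.8 (KO 132), 22.3 (KO 60), 19.6 (WT 56) and 17.7 (WT 64). The labels overlapped in both fractions. The log2 difference of KO from WT was -0.12 ± 0.15 in astrocytes (95% interval -0.47 to 0.22) and -0.09 ± 0.26 in flowthrough (-0.67 to 0.49), the narrowest intervals of the 8 in flowthrough and in astrocytes.

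Ccl2 and Ccl12, the monocyte-attracting ligands of CCR2, spread widely among mice of the same label. Ccl2 (ENSMUSG00000035385, chromosome 11, 82035571 to 82037453, forward strand) was at 15.8, 3.46, 8.60 and 50.6 scaled CPM in KO astrocytes 132, 60, 62 and 73 and at 17.0, 2.64, 26.5 and 6.26 in WT 56, 57, 64 and 78. Ccl12 (ENSMUSG00000035352, chromosome 11, 82101845 to 82103400, forward strand) was at 14.1, 5.42, 13.5 and 78.2 in the KO and 14.9, 12.985, 39.6 and 8.73 in the WT libraries, in the same order. Both were highest in KO 73 and next highest in WT 64, and the ranges of the labels overlapped. The KO astrocyte libraries spanned 14.6-fold for Ccl2 and 14.4-fold for Ccl12. In flowthrough Ccl2 was at 99.6 and 41.1 in KO 132 and 60 and at 53.6 and 67.2 in WT 56 and 64, and Ccl12 at 124, 70.6, 84.8 and 142 in these libraries. There the WT values of Ccl2 lay between the KO values. The log2 difference of KO from WT was 0.59 ± 0.83 for Ccl2 and 0.55 ± 0.77 for Ccl12 in astrocytes, and 0.22 ± 1.10 and -0.22 ± 1.01 in flowthrough. The whole interval of Ccl2 lies within that of a predicted gene on the opposite strand, Gm17268 (1883 shared bases). Whether their exons overlap was not examined and no strand setting is stated, so it is not known whether reads of the pair were told apart.

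**Figure D2:**
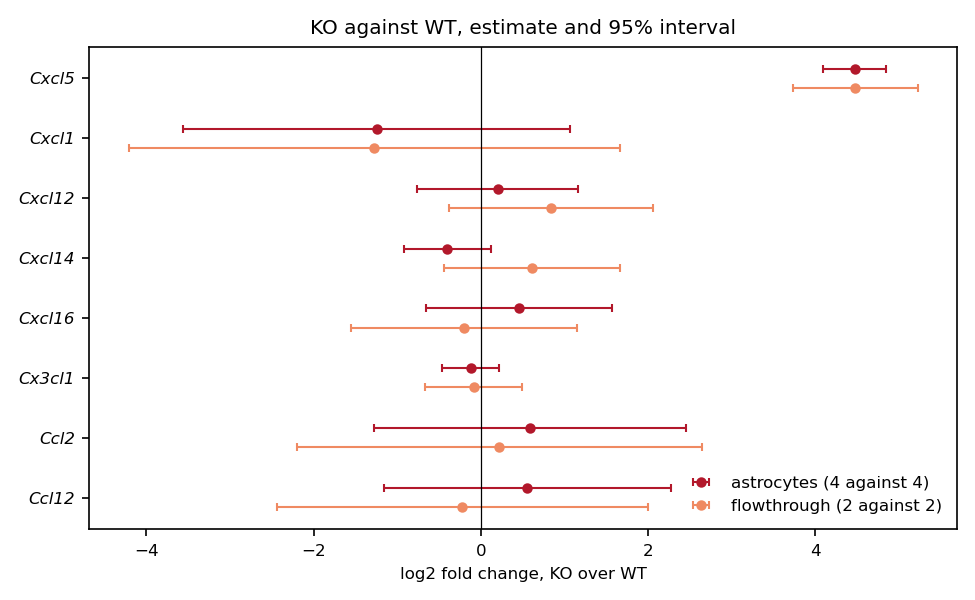
Log2 fold change of KO over WT for the 8 chemokines in astrocytes (4 against 4 libraries) and flowthrough (2 against 2), with points at the estimates and bars for 95% intervals. Both Cxcl5 intervals lie right of 0, at 4.09 to 4.85 and 3.73 to 5.22, while those of the other 7 chemokines include 0 in both fractions. Since the choice of the genes used this contrast, these positions are a description only. The flowthrough intervals share their spread with the astrocyte libraries.

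The sequences just upstream of 2 members are shown, since Cxcl1 shares the gene cluster of Cxcl5 and Cxcl14 shares its enrichment in the astrocyte fraction, described further on. RefSeq promoter entries (GRCm38.p6) matched 5 of the 8 genes, Cxcl1, Cxcl12, Cxcl14, Cx3cl1 and Ccl12. The 250 bases before the start site of each RefSeq entry were searched on both strands for the E-box CACGTG, the kappaB motif (GGG, any 2 bases, TTTCC), the ROR element letters AGGTCA, which nuclear receptors of the clock bind, and the AP-1 letters TGANTCA. Capitals mark matches, and the strands read are chr5:90890995-90891244 forward for Cxcl1 and chr13:56296552-56296801 reverse for Cxcl14.
Cxcl1: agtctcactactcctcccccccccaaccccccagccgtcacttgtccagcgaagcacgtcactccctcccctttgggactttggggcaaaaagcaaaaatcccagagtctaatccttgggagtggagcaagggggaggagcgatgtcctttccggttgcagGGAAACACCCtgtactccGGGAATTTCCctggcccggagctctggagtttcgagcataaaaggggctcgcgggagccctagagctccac
Cxcl14: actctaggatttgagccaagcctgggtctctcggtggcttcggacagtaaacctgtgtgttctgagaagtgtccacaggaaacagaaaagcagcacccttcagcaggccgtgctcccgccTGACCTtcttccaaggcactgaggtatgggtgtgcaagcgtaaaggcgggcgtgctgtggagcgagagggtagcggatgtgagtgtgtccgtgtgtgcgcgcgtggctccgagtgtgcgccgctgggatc
Cxcl1 held 2 kappaB matches, GGGAATTTCC at bases -71 to -62 and, on the other strand, GGAAACACCC at -89 to -80, counted back from the RefSeq start site, which is not always the gene start of the deposited files: the Cxcl1 window ends inside the gene interval given above, and most of the Cx3cl1 window lies inside that of Cx3cl1. Cxcl14 held 1 match to AGGTCA, read on the other strand as TGACCT at -130 to -125. None of the 5 windows held CACGTG or TGANTCA, and the windows of Cxcl12, Cx3cl1 and Ccl12 held none of the 4 motifs. Of 32851 promoters of the same length, 1.41% held the kappaB motif, 14.0% AGGTCA, 6.02% CACGTG and 6.75% TGANTCA. A match describes letters, and binding was not measured.

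In KO against WT astrocytes 0.232% of the 18527 genes tested had an adjusted p under 0.05, and 1 of the 8 members, Cxcl5, was among them. In flowthrough 0.00476% of 20997 genes did, which is 1 gene, Cxcl5. Since Cxcl5 was chosen by this difference, nothing is read from either count. In flowthrough no gene passed when mouse 64 was left out, and the threshold was also missed by Cxcl5 without WT flowthrough 56 or WT flowthrough 64, at log2 differences of 4.29 and 4.68. By overlap, 1 of the 8 members had separate KO and WT astrocyte libraries, against 4.03% of all tested genes. In flowthrough 3 members did, Cxcl5, Cxcl1 and Cxcl12, against 33.6% of all genes with only 2 libraries a group. Beyond the 8, the list of chemokine ligands held 39 genes, of which 27 passed the filter on low counts in astrocytes. Apart from Cxcl5, chosen by this contrast, no ligand had an adjusted p under 0.05. Of the 27, 19 lay above and 8 below 0, with a median log2 difference of 0.55, whereas 50.8% of all genes tested lay above 0, with a median of 0.00. Beside this, all 13 microglia markers (median 0.55) and all 7 border macrophage markers (median 0.79) lay above 0, and none of them passed. Among the astrocyte libraries both marker sums were highest in KO 73, as were those of choroid plexus and ependymal markers. Without KO 73, Ccl2, Ccl12, Cxcl16 and Cxcl12 turned below 0. The part of any of these cells in the ligand values was not tested. Ccl22, a macrophage-derived ligand for T cells, was the nearest to Cxcl5 in size at 1.35 ± 0.80 (adjusted p = 0.976), followed by Cxcl2, another CXCR2 ligand, at 1.29 ± 0.82 (adjusted p = 0.987).

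None of the 16 receptors tested in astrocytes had an adjusted p under 0.05; the smallest was 0.931, for Ackr1. The CXCR2 receptor gene Cxcr2 was at 0.0948 to 1.93 scaled CPM in KO and 0.0586 to 0.982 in WT astrocytes, against 12.4 to 53.0 in flowthrough. Cxcr2 was thus near the floor of detection in several astrocyte libraries, and its log2 difference of KO from WT was 0.70 ± 0.98 in astrocytes and -1.08 ± 1.10 in flowthrough. The CXCL12 receptors Cxcr4 and Ackr3 gave 0.73 ± 0.51 and 0.06 ± 0.27 in astrocytes. Ccr2, the receptor of Ccl2 and Ccl12, gave 0.20 ± 0.85, and Cx3cr1 gave 0.74 ± 0.44. Cxcr6, the receptor of Cxcl16, gave 1.74 ± 0.91 (adjusted p = 0.972), with KO 73 at 7.69 scaled CPM and the other 7 astrocyte libraries at 0.306 to 1.48. Neutrophils carry CXCR2, and none of the 11 neutrophil markers tested in astrocytes passed; their summed level was 15.3 to 283 scaled CPM in KO and 13.3 to 217 in WT astrocytes, and 3024 to 6627 in KO and 3312 to 10810 in WT flowthrough. None of the 28 tested genes of NF-kB and of the cytokine signals that engage it passed in KO against WT astrocytes (median log2 difference 0.07). Among the 20 clock genes, where the smallest adjusted p was 0.0868, for Nr1d2, none passed either. The E-box target genes Nr1d1 and Dbp were lower in every KO than in every WT astrocyte library, with log2 differences of -0.79 ± 0.15 (adjusted p = 0.110) and -0.59 ± 0.18 (adjusted p = 0.498). Separate libraries, in either direction, were seen for 4.03% of all genes tested. The clock list went both ways, with 7 genes above and 13 below 0. In it Per2, Per3 and Nr1d2 were also lower in every KO astrocyte library, and Arntl and Npas2 were higher in every one. For the rest of the list, Per1 and Cry1 among them, the labels overlapped.

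**Figure D3:**
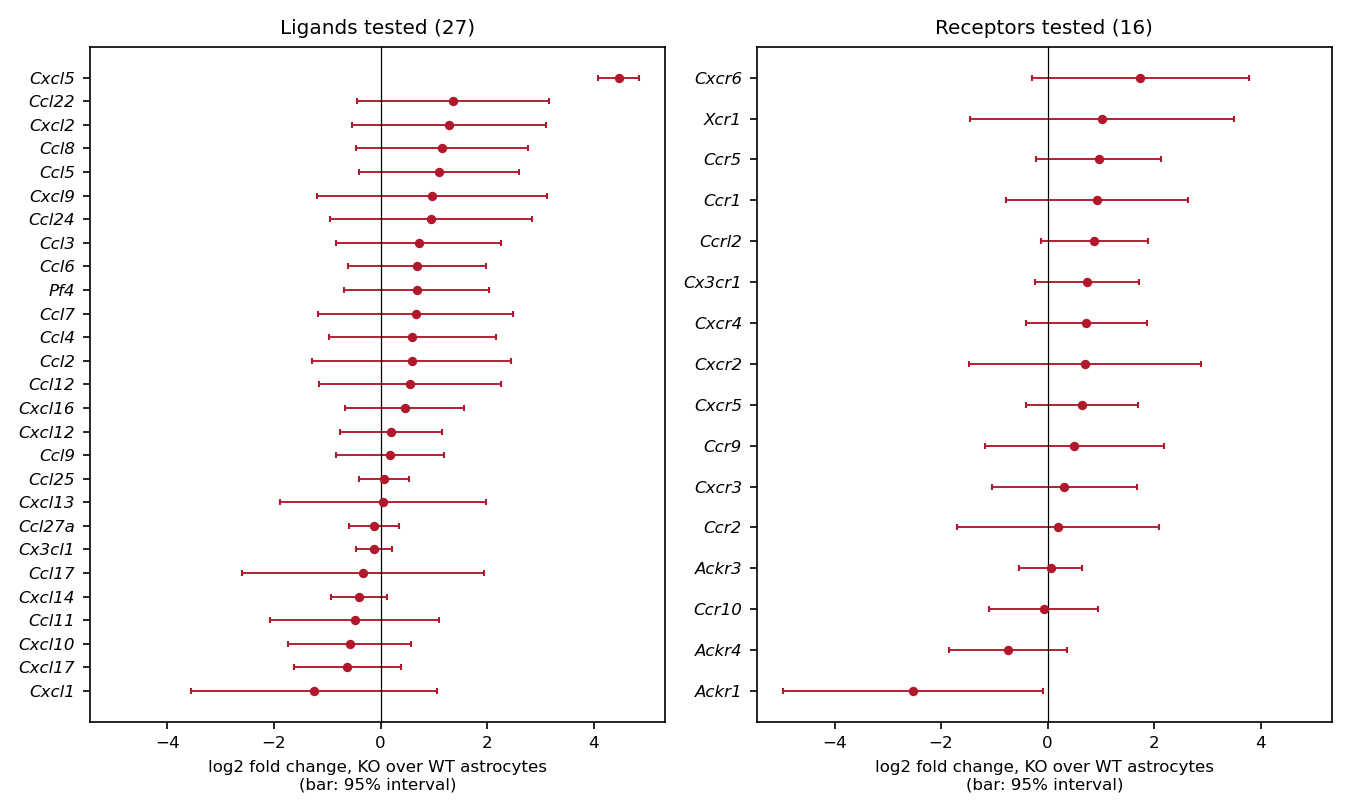
Log2 fold change of KO over WT astrocytes, with 95% intervals, for the 27 chemokine ligands (left) and 16 receptors (right) that passed the filter on low counts. Cxcl5, at 4.47, stands apart at the top of the ligands, and the next, Ccl22, is at 1.35.

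The genes around Cxcl5 were examined for a shared difference. Of 20 other genes whose intervals lay within 500 kb of it, 19 had a count, among them the cluster members Ppbp, Pf4, Cxcl3, Cxcl15, Cxcl1 and Cxcl2. In astrocytes 8 of them were tested, with log2 differences of KO from WT between -1.25 for Cxcl1 and 1.29 for Cxcl2. None had an adjusted p under 0.05 in edgeR's test, and none an unadjusted p under 0.05. Ppbp, a platelet chemokine 9.22 kb from Cxcl5, had 0 to 338 counts in KO and 4 to 153 in WT astrocytes and did not pass the filter there. Pf4, the platelet factor 13.1 kb away, gave 0.68 ± 0.61 in astrocytes and -0.10 ± 0.79 in flowthrough. Cxcl3 and Cxcl15 had 42 and 8 counts in all 12 libraries together and were not tested. In flowthrough 12 neighbours were tested, from -3.59 for Ppbp to 1.04 for Mthfd2l, and none had an adjusted p or an unadjusted p under 0.05. The longest run of bases its transcripts share with any other chemokine ligand was 18, with Cxcl3.

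**Figure D4:**
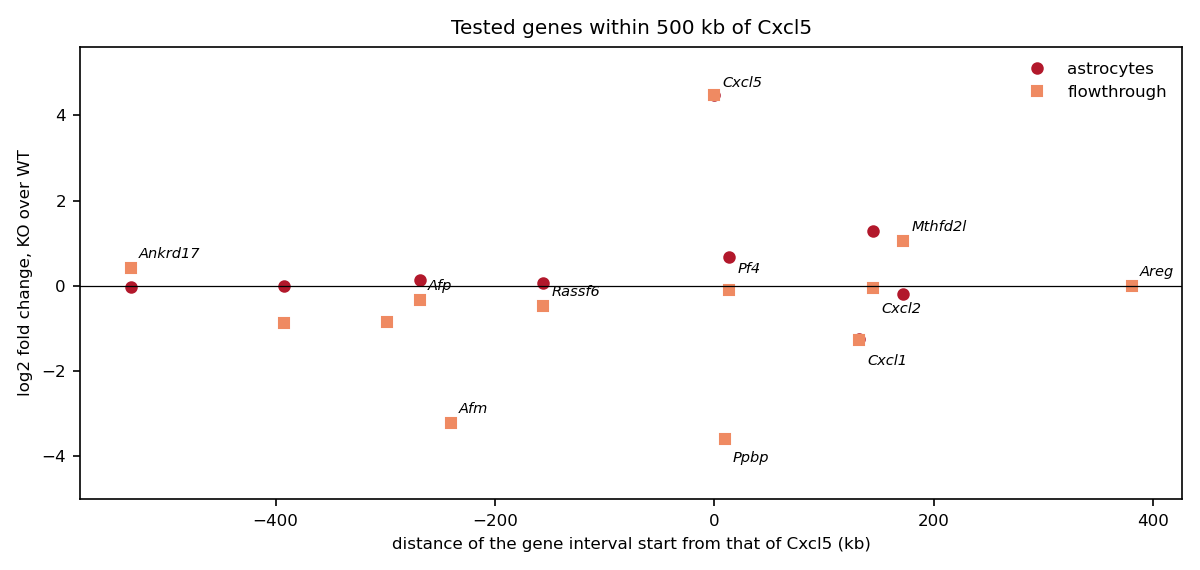
Log2 fold change of KO over WT for the tested genes within 500 kb of Cxcl5, in astrocytes (circles) and flowthrough (squares), against the distance in kb between the start of each gene interval and that of Cxcl5. Cxcl5 is at 4.47 in both fractions; the astrocyte values of the 8 tested neighbours lie between -1.25 and 1.29.

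The choice of the genes rested on KO and WT levels and not on the contrast of the fractions. The pooled and the KO-only contrasts of the fractions still draw on the KO libraries whose high Cxcl5 level entered that choice. Between the fractions the members went opposite ways. Of the 8, 6 passed edgeR's quasi-likelihood test with Benjamini-Hochberg adjustment over 20997 genes, among which 49.2% passed. Cxcl5 and Cxcl14 were higher in the astrocyte fraction (24.8% of all genes were), and Cxcl12, Cxcl16, Ccl2 and Ccl12 were lower (24.4% of all genes). In WT mice alone 5 of the 8 passed, against 37.9% of all genes, and in KO mice alone 4, against 23.3%. Cxcl5, Cxcl12, Cxcl14 and Cxcl16 passed in both, and Ccl12 passed in WT, with no test of the difference. Cxcl5 was higher by 2.03 ± 0.20 on the log2 scale (adjusted p = 3.9e-05), that is 4.09-fold. In WT alone the fold was 4.11 (95% interval 2.56 to 6.59) and in KO alone 4.07 (2.74 to 6.04). Within each of the 4 mice with both fractions it was 6.63 in KO 132, 3.14 in KO 60, 3.98 in WT 56 and 4.45 in WT 64. Cxcl14 was higher by 1.91 ± 0.29 (adjusted p = 0.000614), or 3.76-fold, and by 5.53, 2.30, 3.55 and 6.25-fold within mice 132, 60, 56 and 64. Both genes had their smallest ratio in mouse 60. The astrocyte markers Aldh1l1 and Atp1b2, the latter encoding the ACSA-2 antigen, were 2.33 and 2.99-fold higher in the astrocytes of mouse 60, against 2.90 to 3.83 and 4.71 to 5.54-fold in the other 3 mice. KO flowthrough 60 was the flowthrough library with the highest Cxcl5. There the 12 astrocyte markers summed to 6364 scaled CPM, against 2128 to 3162 in the other 3 flowthrough libraries. The sums of neuron markers (1053 against 390 to 507) and oligodendrocyte markers (29741 against 12313 to 15292) were also highest there. That of microglia markers was lowest (13346 against 15238 to 20947). The part of any of these cells in the Cxcl5 level of flowthrough was not tested.

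Cxcl16 had the largest fraction difference of the 8, with a log2 difference of astrocytes from flowthrough of -2.76 ± 0.38 (adjusted p = 0.000152), or 6.77-fold lower in astrocytes. The difference for Ccl12 was -2.19 ± 0.62 (adjusted p = 0.0102), and for Ccl2 -2.02 ± 0.68 (adjusted p = 0.0231). Cxcl12 was lower by 3.52-fold (log2 difference -1.82 ± 0.34, adjusted p = 0.000960). Each of these 4 was lower in the astrocytes than in the flowthrough of every one of the 4 mice. The ratio of flowthrough to astrocytes was 6.21 to 12.3 for Cxcl16, 3.601 to 13.01 for Ccl12, 2.53 to 11.9 for Ccl2 and 1.67 to 5.38 for Cxcl12. The call for Ccl2 was lost when KO flowthrough 132 (adjusted p = 0.111) or WT flowthrough 64 (0.0664) was left out. Cx3cl1 was 1.30-fold higher in astrocytes, and this did not pass (log2 difference 0.38 ± 0.16, adjusted p = 0.0782). Cxcl1 gave -0.85 ± 0.83 (adjusted p = 0.406). With the mouse as a random effect both passed, at an adjusted p of 0.0387 for Cx3cl1 and 0.0285 for Cxcl1, and with 1 library left out Cxcl1 passed without WT astrocytes 64 (-1.93, adjusted p = 0.0129) and Cx3cl1 without KO flowthrough 60 (0.59, adjusted p = 0.0102). In the wider list, 33 ligands and 22 receptors were tested between the fractions. Of the ligands 3 were higher in astrocytes, Cxcl5, Cxcl14 and Ccl27a, a ligand of CCR10, and 16 were lower. Of the receptors none was higher and 17 were lower, with a median log2 difference of -2.93 against 0.00 over all genes tested. The log2 difference was -5.23 for Cxcr2 (adjusted p = 0.000169), -4.96 for Ccr2 (adjusted p = 0.000124) and -4.00 for Cx3cr1 (adjusted p = 1.8e-05).

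**Figure D5:**
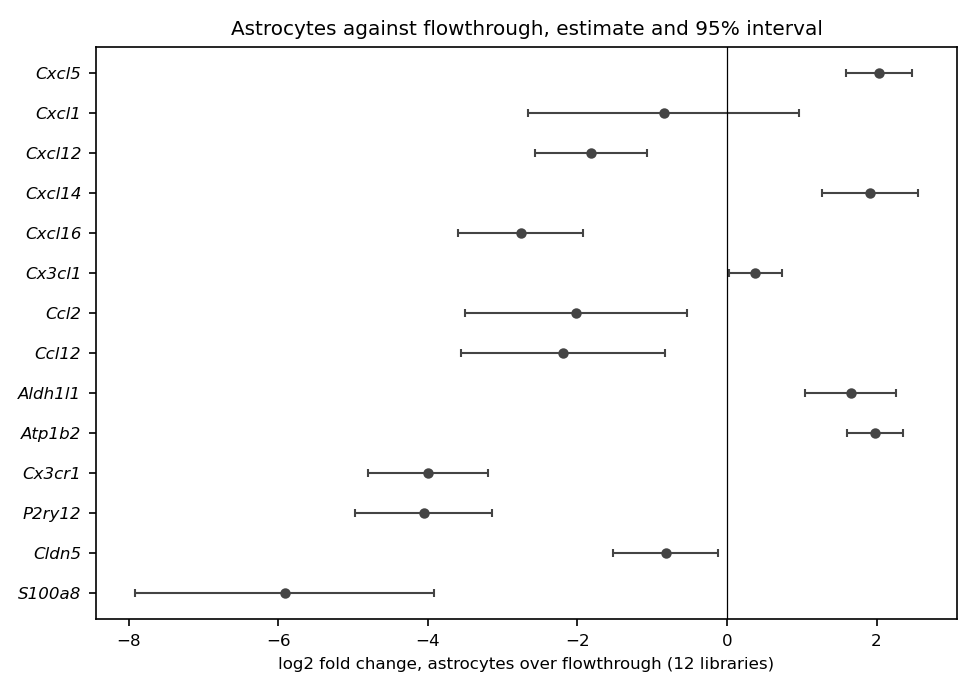
Log2 fold change of astrocytes over flowthrough in the 12 libraries, with 95% intervals, for the 8 chemokines and, below them, marker genes of astrocytes (Aldh1l1, Atp1b2), microglia (Cx3cr1, P2ry12), endothelium (Cldn5) and neutrophils (S100a8). Cxcl5, at 2.03, and Cxcl14, at 1.91, lie on the side of the astrocyte markers. Markers of neurons and oligodendrocytes, which are not drawn, had log2 differences on that side too. Cxcl12, Cxcl16, Ccl2 and Ccl12, at -1.82 to -2.76, lie on the side of the microglia, endothelial and neutrophil markers. Markers of monocytes and choroid plexus, which are not drawn, had log2 differences on that side too.

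Libraries from individual mice stood apart for several members. In KO 73, Ccl2, Ccl12, Cxcl16 and Cxcl12 were each at their highest among the 8 astrocyte libraries, and Cxcl14 at its lowest. The 13 microglia markers summed to 3479 scaled CPM in KO 73, against 718 to 1424 in the other 7, and none was at 0 in any library. The 7 markers of border macrophages summed to 309 against 34.9 to 110, and the 12 astrocyte markers to 8153 against 10449 to 14808. Choroid plexus markers (9326 against 1804 to 5874) and ependymal markers (857 against 53.6 to 585) also summed highest in KO 73. The same held for neutrophil, monocyte and platelet markers. Neuron markers summed lowest there (1108 against 1461 to 2620). Endothelial, mural, fibroblast and oligodendrocyte sums were not highest in KO 73. The part of these cells in the chemokine levels was not tested. Without KO 73 the log2 difference of KO from WT astrocytes was -0.50 for Ccl2, -0.79 for Ccl12, -0.20 for Cxcl16 and -0.20 for Cxcl12, each turned from above to below 0; Cxcl5 stayed between 4.37 and 4.59 over all 14 alternatives. In WT 64, Cxcl1 was at its highest in both fractions. Ackr1, a decoy receptor of venules and erythrocytes that binds many chemokines, was there too, at 227 scaled CPM in astrocytes and 153 in flowthrough, against 4.95 to 16.7 in the other 10 libraries. The endothelial adhesion genes Sele, Selp, Icam1 and Vcam1 and the interleukin 1 receptor gene Il1r1 were also highest in mouse 64 in both fractions, which held for 3.91% of the 20997 genes. In the list of 14 processing and adhesion genes tested, 5 were highest there in both fractions, the adhesion genes just named and Dpp4. Icam2, another endothelial adhesion gene, was not, at 24.3 scaled CPM in WT astrocytes 64 and 27.9 in KO astrocytes 73. Endothelial markers summed to 1211 scaled CPM in WT astrocytes 64 and 417 to 967 in the other 7. In flowthrough they summed to 1669 in WT 64 and 1084 in WT 56, and to 1741 and 2043 in KO 60 and 132. Of the 10 endothelial markers, 2 were highest in mouse 64 in both fractions. So were 3 of 8 mural markers (Acta2, Myh11, Tagln) and 5 of 20 clock genes (Per1, Per2, Per3, Ciart, Bhlhe40). In the list of NF-kB and cytokine signal genes 4 of 29 were, Il1r1 with Nfkb2, Nfkbia and Chuk. No microglia, neutrophil or astrocyte marker was highest there in both fractions. The part of endothelial or mural cells was not tested. Cxcl5 did not single out these animals: KO 73 was at 36.1 among KO values of 35.2 to 42.0, and WT 64 at 2.11 next to WT 78 at 1.98.

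Per kilobase of exon length, which allows levels of different genes to be compared, Cxcl5 moved from last place among the 8 in WT astrocytes, at 1.04 ± 0.23 scaled CPM per kb (SD, n = 4), to the second in KO astrocytes, at 23.0 ± 1.8. Only Ccl12 had a higher mean in KO astrocytes (51.8 ± 63), and its range overlapped that of Cxcl5. Cxcl14 followed Cxcl5 at 22.1 ± 6.6, with overlapping ranges. In WT astrocytes the order was Ccl12, Cxcl14, Ccl2, Cx3cl1, Cxcl12, Cxcl1, Cxcl16 and Cxcl5. Neighbours in that order overlapped in range except Cxcl14 with Ccl2 and Cx3cl1 with Cxcl12. In WT flowthrough Cxcl5 was again last, at 0.253 ± 0.048 (n = 2), under every other member. In KO flowthrough it was the sixth, at 5.64 ± 2.6, and overlapped both its neighbours, Cxcl16 and Cx3cl1.

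The Pearson correlation of log2 CPM with Cxcl5 over all 12 libraries was 0.30 for Cxcl14 and between -0.38 and 0.08 for the other 6, over libraries that share the same 2 labels and 2 fractions. Over the 8 astrocyte libraries alone it was -0.53 for Cxcl14 and -0.33 for Cx3cl1, both turned from above 0, and between -0.12 and 0.20 for the other 5. Of these, Cxcl12, Cxcl16, Ccl2 and Ccl12 turned from below to above 0, and only Cxcl1 kept its sign. The 20996 other genes were ranked by the correlation over 12 libraries, and genes without a symbol or with a clone name were passed over. The 8 most like Cxcl5 were then Hebp2 (0.954), Tbx10 (0.952), Slc20a2 (0.950), Ntn1 (0.944), Krt28 (0.942), Spon2 (0.939), Pla2g3 (0.934) and Cmpk2 (0.926). In astrocytes alone these correlations were 0.928 to 0.982. Spon2, which encodes a secreted matrix protein, went from 0.267 to 1.65 scaled CPM in WT astrocytes to 77.5 to 135 in KO astrocytes. Hebp2, a haem-binding protein gene, went from 5.70 to 7.08 in WT to 46.01 to 105 in KO. Slc20a2, a phosphate transporter gene, was at 34.7 to 47.3 in WT and 98.6 to 137 in KO astrocytes. For all 8 of these genes the KO and WT astrocyte libraries did not overlap, which is part of what the likeness measures.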

How the data were processed

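RNA from 12 libraries was sequenced, and the deposited files give for each gene a raw count, a CPM and an RPKM, per the file headers. The submitters' processing notes name STAR 2.5.1a, featureCounts 1.4.6-p5 and GRCm38; no source used here states the strand setting or the handling of multi-mapping reads. The authors' CPM and RPKM columns equalled the deposited counts divided by the library total, and by gene length, to within 9.1e-11. All values here were computed from the counts with R 4.3.3 and edgeR 4.0.16: TMM scaling, the filterByExpr filter, the quasi-likelihood test and Benjamini-Hochberg adjustment over all genes tested (threshold 0.05). KO against WT astrocytes was fitted on the 8 astrocyte libraries, and every other comparison on all 12 with 4 group means. SE are Wald errors of the fitted contrast, and 95% intervals use its degrees of freedom. In counts simulated for these comparisons, 97.0% of genes changed by 2 on the log2 scale were recovered for KO against WT astrocytes, 78.0% for flowthrough and 54.5% for the difference between the fractions. The changed genes were drawn only from those above a minimum mean CPM, which Cxcl1 did not reach. These shares are thus not the recovery for each member, least of all for members with few counts or a wide spread.

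The 8 chemokines and all lists were chosen with earlier results of these data known. Of 248 listed genes 247 were matched. Named genes were the 8, their receptors, Arntl, Aldh1l1, Atp1b2, ligands or receptors passing a test, up to 4 genes of each list with the smallest p in KO against WT astrocytes, genes with a count within 500 kb of Cxcl5, and the 8 most correlated with it (log2 CPM, prior count 2). The 8 most correlated were taken among genes with a symbol that is not a clone name. Genes named for mouse 64, Ccl22, and receptors or markers beyond these were chosen after their values were seen. Mouse numbers in the titles pair the fractions of 4 mice; their deviations from group means correlated by -0.01 (mouse 132), 0.15 (56), 0.35 (60) and 0.25 (64). Alternatives were RLE factors, no filter, DESeq2 1.42.0, other sets of libraries, each library left out, and the mouse as a fixed or random block (limma 3.58.1).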

Additional observations from a re-analysis of the deposited data

Results flagged for a closer look

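Among 16 groups of 4 astrocyte libraries (8 chemokines, 2 labels), 2 had a library far from the other 3. The cut-off flags about 1 in 20 such groups by chance if values are normally distributed. That was not checked for these scaled CPM, which were not put on a log scale, so the chance rate here is not known. Cxcl1 in WT astrocytes was at 8.522 scaled CPM in WT 64, with the other 3 at 0.376 to 0.879, and the gap was 0.938 of the whole range. Ccl12 in KO astrocytes was at 78.16 scaled CPM in KO 73, with the other 3 at 5.42 to 14.1, and the gap was 0.880 of the range.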

How the results depend on the processing

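The number of genes passing in KO against WT astrocytes was 43, and 184 with DESeq2, 20 without mouse 64 (an alternative chosen after seeing the data) and 12 to 37 with each library left out; the count among the 8, whose choice used this contrast, was 1 to 1 there. In flowthrough the count was 1, and 22 with DESeq2, 0 without mouse 64, 0 with the 4 flowthrough libraries alone and 0 to 5 with each library left out. Among the 8, the flowthrough count fell from 1 to 0 without mouse 64 and with those 4 alone, and was 0 to 1 with each library left out. For the difference between the fractions in the KO against WT contrast edgeR passed 0 genes (828 at an unadjusted p under 0.05), DESeq2 8, and each left-out library 0 to 0. Between the fractions 10333 genes passed, 7463 to 11458 with each library left out, and 6 of the 8 chemokines, 5 to 7. Cxcl5 kept its direction in every alternative run: 4.37 to 4.59 in astrocytes, 3.91 to 4.88 in flowthrough and 1.83 to 2.30 between the fractions. Directions turned in astrocytes for Cxcl1 without mouse 64 (0.91), and without KO 73 and WT 78 together for Cxcl12 (-0.39), Cxcl16 (-0.36), Ccl2 (-0.73) and Ccl12 (-1.03). In flowthrough Ccl12 turned without mouse 64 (0.20). With each library left out, astrocyte values ran from -1.71 to 0.91 (Cxcl1), -0.20 to 0.60 (Cxcl12), -0.20 to 0.72 (Cxcl16), -0.50 to 1.19 (Ccl2) and -0.79 to 1.20 (Ccl12). Flowthrough values ran from -0.37 to 1.20 (Cxcl14), -0.54 to 0.26 (Cx3cl1), -0.55 to 0.72 (Ccl2) and -0.69 to 0.20 (Ccl12). The difference between the fractions for Cxcl5, near 0, was 0.0045 with RLE factors, 0.079 without KO 73 and WT 78, 0.11 with the mouse as a replicate block, 0.12 with that block as a random effect, and -0.42 to 0.56 with each library left out. Beyond the random-effect calls for Cx3cl1 and Cxcl1 in the report, the block changed no call of the 8. The causes were not tested. Precision was limited by 2 flowthrough libraries a label, by 20 and 24 counts of Cxcl5 in WT flowthrough and by 6 counts of Cxcl1 in KO astrocytes 60.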
